A study of Mus musculus with 6 samples.

Results

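The genes described here are 10 genes of pigment synthesis and of melanocyte regulation that mark the intermediate cells of the stria vascularis, namely Tyr, Tyrp1, Dct, Pmel, Mlana, Mitf, Kit, Ednrb, Gpr143 and Slc45a2. They were chosen by name and not by a rule on their values, from the 25419 genes that the transcripts of the table add up to. Earlier results of these data were known at that time. All 10 genes were in the table, and all 10 were among the 19465 genes with a mean of at least 0.1 FPKM (fragments scaled to transcript length and to sequencing depth) that were tested. Cochlear tissue of C57BL/6 mice was sequenced as 3 samples from young mice (1 month old) and 3 samples from old mice (12 months old), each a pool of 3 animals. Both ages were of this 1 strain, which is known to lose hearing early in life. According to the labels the dissected tissue was the basilar membrane of the cochlea, whereas the stria vascularis lies on the lateral wall, so that the markers of the stria were examined first. Each sample held an estimated 12520000 to 15580000 fragments, as judged from the spacing of low FPKM values.

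The stria vascularis pumps potassium into the endolymph and generates the endocochlear potential that drives the current through hair cells. It has marginal cells facing the endolymph, basal cells facing the spiral ligament, and between them the intermediate cells, which are melanocytes derived from the neural crest and from Schwann cell precursors. Without melanocytes, as in mutants of Kit, Mitf or Ednrb, the stria degenerates and the animal is deaf. Pigment is made in melanosomes, where tyrosinase (Tyr) oxidizes tyrosine and its relatives dopachrome tautomerase (Dct) and Tyrp1 act on later products.

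Transcripts of the stria were abundant in all 6 samples. Kcnq1 and Kcne1, the subunits of the potassium channel through which marginal cells secrete potassium, lay at 34.5 to 55.9 FPKM and at 98.4 to 170.9 FPKM. Cldn11, which seals the basal cell layer, lay at 202.9 to 346.4 FPKM, and Kcnj10, the potassium channel of intermediate cells, at 21.4 to 39.4 FPKM. Otof and Slc26a5 of hair cells were also present, at 5.13 to 7.72 and at 2.96 to 7.68 FPKM. Thus the samples held strial tissue along with the sensory epithelium.

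Young replicate 2 was low in marginal and intermediate cell transcripts among the young samples. It had the lowest young value for 7 of the 10 genes described here, for 7 of 8 marginal cell genes and for 6 of 7 further intermediate cell genes, compared with 34.5% of all genes tested. It was lowest for only 2 of 5 basal cell genes and 4 of 17 melanocyte regulators. Hair cell genes were also lowest there for 7 of 8 genes and macrophage genes for 8 of 10, whereas 0 of 10 Schwann cell genes and 0 of 8 endothelial genes were. In bulk tissue, fewer cells of a type and less RNA per cell cannot be told apart. Young replicate 3 had the highest young value for 6 of the 10 genes described here. The same held for 5 of 8 marginal cell genes and 5 of 7 further intermediate cell genes, compared with 34.7% of all genes tested. Values without young replicate 2 are given wherever leaving it out changed the direction. Without young replicate 3 the log2 change was 0.34 for Tyr, 0.31 for Dct and 0.34 for Pmel, and none of these passed.

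Of the 10 pigment genes, 0 passed the test between 1 and 12 months with limma at an adjusted p of 0.05, compared with 9.45% of all genes (5.65% higher and 3.81% lower at 12 months). Before adjustment, 2 of 10 were below 0.05, Mlana and Slc45a2, where 27.8% of all genes lay below that value. The ages did not overlap for these 2 genes, against 33.7% of all genes, with the old samples higher in both (17.6% of all genes) and lower in 0 (16.1%). The median log2 change of the 10 genes was 0.21 (old minus young, on log2(FPKM + 0.1)), and that of all genes was 0.0088. The change was above 0 in 9 of the 10 genes, against 51.0% of all genes. Without young replicate 2 the change was above 0 in 5 of the 10 genes, with a median of 0.076. The median was 0.114 without old replicate 1, with 6 genes above 0, and 0.315 without young replicate 3, where 1 gene passed, Mlana.

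**Figure D1:**
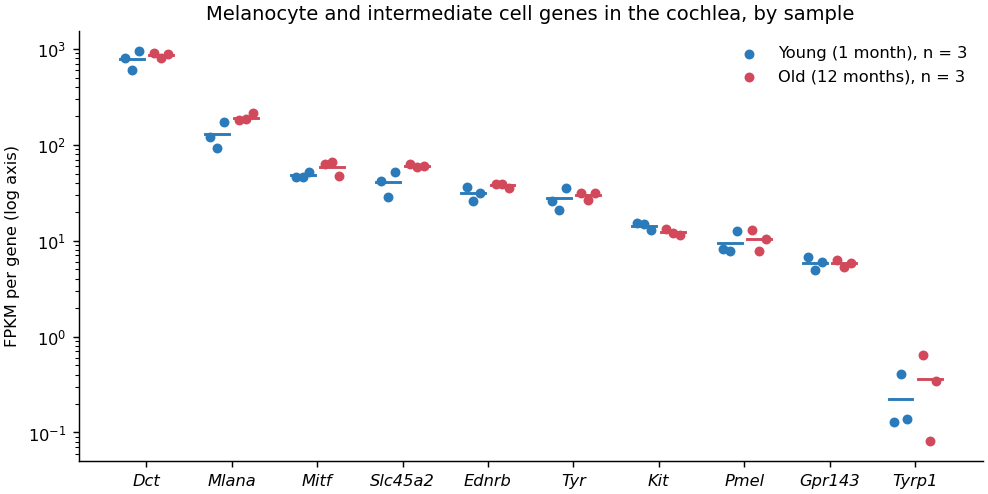
FPKM per gene (log axis) of the 10 genes in each young and old sample, with a line at each group mean; genes are in order of their mean over the 6 samples. Dct lay between 600.3 and 951.4 FPKM in every sample and Tyrp1 below 1 FPKM, and the groups were apart for Mlana and Slc45a2 only.

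The levels of the 10 genes spanned more than 3 orders of magnitude on the FPKM scale. In order of the mean over the 6 samples they were Dct (823.2 FPKM), Mlana (159.7), Mitf (53.3), Slc45a2 (50.6), Ednrb (34.5), Tyr (28.6), Kit (13.3), Pmel (9.945), Gpr143 (5.85) and Tyrp1 (0.292). The ranges of Mitf and Slc45a2 overlapped, and Mitf was the higher in 4 of 6 samples. Ednrb was above Tyr in 5 of 6 samples, with overlapping ranges. For the other neighbours in this order, the first was higher within each of the 6 samples, although the ranges over samples also overlapped for Slc45a2 and Ednrb and for Kit and Pmel.

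Dct (GRCm38 chr14:118012790-118052244, minus strand) was the pigment gene with the highest level at both ages. Its enzyme converts dopachrome into a carboxylated precursor of eumelanin. It was at 800.3, 600.3 and 951.4 FPKM in young replicates 1, 2 and 3. In old replicates 1, 2 and 3 it was at 897.7, 808.2 and 881.2 FPKM. This placed Dct between ranks 53 and 99 of the 25419 genes in each sample. The old values lay within the range of the young ones. The log2 change was 0.16 (SE 0.16, 95% interval -0.20 to 0.53, limma adjusted p = 0.541), so that a fall below 0.868-fold or a rise above 1.44-fold lay outside the interval. Without young replicate 2 it was -0.019.

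Tyr (chr7:87424771-87493512, minus strand) encodes the enzyme of the first and rate-limiting step. It was at 26.1, 20.98 and 35.4 FPKM in young mice and at 31.6, 26.6 and 30.98 FPKM in old mice. The groups overlapped, with the highest and the lowest value both in young mice. The log2 change was 0.14 (SE 0.18, 95% interval -0.28 to 0.57, limma adjusted p = 0.653), and -0.036 without young replicate 2. Most of this was 1 transcript with the whole coding sequence of 533 codons, Tyr-201, which was at 23.95 ± 5.595 FPKM (SD, n = 3) at 1 month and 23.75 ± 1.47 FPKM at 12 months. Tyr-203, a transcript of 516 nt with 2 exons, made up the rest (3.54 ± 1.82 and 5.97 ± 1.47 FPKM). It rested on an estimated 7.35 to 21.8 fragments per sample, against 1477 to 2145 for Tyr-201. With Tyr-201 alone the log2 change was 0.012.

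Tyrp1 (chr4:80834123-80851719, plus strand), the third enzyme of the family, lay far below the other enzymes. It was at 0.129, 0.411 and 0.137 FPKM in young mice and at 0.648, 0.0807 and 0.343 FPKM in old mice. These values correspond to an estimated 3.99, 11.9 and 3.999 fragments in the young samples and 7.96, 1.99 and 8.94 in the old ones. The same estimate gave 15820 to 24200 fragments for Dct. At this depth a change of Tyrp1 was not detectable, as the 95% interval of its log2 change ran from -1.15 to 1.89 (log2 change 0.37, SE 0.65, limma adjusted p = 0.748), and the change was -0.097 without old replicate 1.

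The promoters of these 3 enzyme genes are shown because they share a motif while their transcript levels lay far apart. The M-box, TCATGTG, is a sequence that MITF binds in pigment genes. It was searched on both strands in the 250 bases before the start sites that RefSeq gives (GRCm38.p6), where 6 of the 10 genes had an entry, with 9 start sites in all. Tyr, Dct and Tyrp1 each held it, and Mitf, Kit and Ednrb did not. It was held by 3.25% of the 32851 promoters searched. Other motifs were searched in the same way. CACGTG lay in 0 of the 9 promoters of these genes (6.02% of all promoters). ACAAAG lay in those of Dct and Tyrp1 (16.5% of all promoters). Capitals mark the M-box on either strand (CACATGA is its reverse complement), and each stretch is written 5′ to 3′ along the strand of the gene. The stretches are chr7:87493513-87493632 (minus strand) for Tyr, chr14:118052367-118052496 (minus strand) for Dct and chr4:80834155-80834184 (plus strand) for Tyrp1.
Tyr: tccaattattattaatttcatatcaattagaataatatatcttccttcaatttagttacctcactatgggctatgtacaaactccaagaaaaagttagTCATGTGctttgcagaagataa
Dct: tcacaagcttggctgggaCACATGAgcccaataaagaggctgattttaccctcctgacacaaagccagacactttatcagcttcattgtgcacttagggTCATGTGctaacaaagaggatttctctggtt
Tyrp1: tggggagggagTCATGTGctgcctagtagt
Counted from the start site, the match lay at -22 to -16 in Tyr and at -47 to -41 in Tyrp1, and Dct had matches at -151 to -145 and at -232 to -226. The Tyrp1 stretch lies upstream of the RefSeq start but within an exon of Tyrp1-203, a transcript that starts earlier, whereas the Tyr and Dct stretches touch no annotated exon. A match is a description of the sequence and does not show that a factor bound there.

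Of the 4 members for melanosome structure and transport, Mlana and Slc45a2 were the ones whose ages did not overlap. Mlana (chr19:29697824-29708634, plus strand) is a small membrane protein of early melanosomes. It was at 119.4, 92.2 and 172.2 FPKM in young mice and at 178.7, 183.5 and 212.0 FPKM in old mice, so that each old sample was above each young one, though old replicate 1 was close to young replicate 3. Its log2 change was 0.62 (SE 0.21, 95% interval 0.14 to 1.11), and this did not pass (limma unadjusted p = 0.0180, adjusted p = 0.101). Without young replicate 3 it was 0.86 and passed (limma adjusted p = 0.0296), and without young replicate 2 it was 0.41 (limma adjusted p = 0.2465).

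Slc45a2 (chr15:11000721-11029233, plus strand), a transporter that keeps the melanosome at a pH at which tyrosinase is active, was at 42.1, 28.6 and 52.0 FPKM in young mice and at 62.3, 58.2 and 60.1 FPKM in old mice. The old samples were close together and all above the young ones. On the log2 scale the change was 0.60 (SE 0.19, 95% interval 0.14 to 1.05, limma unadjusted p = 0.0167, adjusted p = 0.0968), and 0.36 without young replicate 2. An exact permutation test of 3 samples against 3, two-sided, gave 0.1 for each, the smallest p it can give.

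Pmel and Gpr143 showed no such separation. Pmel (chr10:128704195-128720238, plus strand) forms the fibrils on which melanin is laid down, and it was at 8.13, 7.83 and 12.7 FPKM in young mice and at 12.97, 7.79 and 10.3 FPKM in old mice. Its values were spread as widely within each age as between the ages (log2 change 0.12, SE 0.24, 95% interval -0.44 to 0.68, limma adjusted p = 0.777), and without young replicate 2 or old replicate 1 the change was -0.0020 and -0.055. Gpr143 (chrX:152781921-152808646, plus strand), the receptor of the melanosome membrane that is mutated in ocular albinism, was at 6.73, 4.89 and 5.93 FPKM in young mice and at 6.33, 5.32 and 5.88 FPKM in old mice. All old values lay inside the young range, and the log2 change was 0.0069 (SE 0.15, 95% interval -0.35 to 0.36, limma adjusted p = 0.984), and -0.11 without young replicate 2 and -0.051 without old replicate 1.

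**Figure D2:**
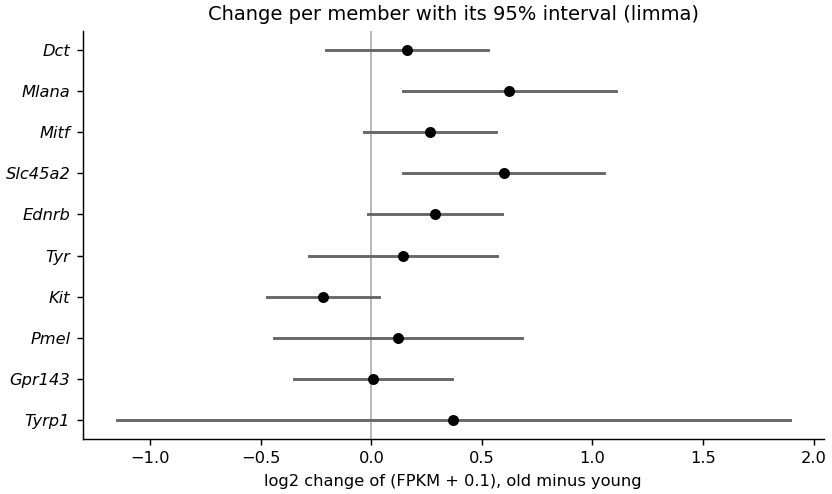
Log2 change of (FPKM + 0.1), old minus young, of each of the 10 genes from limma, with its 95% interval as a bar. The intervals of Mlana (0.14 to 1.11) and Slc45a2 (0.14 to 1.05) lay above 0 before adjustment for the number of genes, and that of Tyrp1 (-1.15 to 1.89) was the widest.

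The level of each gene was also set against Dct in the same sample, a comparison chosen after the values were seen. This ratio does not depend on how the libraries were scaled to each other. Per 100 FPKM of Dct, Slc45a2 was at 5.26, 4.77 and 5.47 in young mice and at 6.94, 7.196 and 6.82 in old mice. The spread within each age (SD 0.358 and 0.190) was small next to the difference of 1.82 between the means, and leaving out any 1 sample kept this difference between 1.62 and 1.97. Mlana was at 14.9, 15.4 and 18.1 in young mice and at 19.9, 22.7 and 24.1 in old mice, again without overlap. Tyr was at 3.26, 3.495 and 3.73 in young mice and at 3.52, 3.29 and 3.52 in old mice, with overlapping groups and a difference of -0.050 between the means, within the SD of 0.235 of the young samples. Pmel, Gpr143, Mitf, Kit and Ednrb overlapped between the ages on this scale. Among 14984 genes with a mean of at least 1 FPKM, 6.65% had all old ratios to Dct above all young ones and 14.9% had them below. In either direction this was 21.5%. The ratios of Slc45a2 and Mlana use the same values that already lay apart between the ages, and add no separate evidence. The exact permutation test gave p = 0.1 for Slc45a2 and for Mlana, which is the smallest it can give, and 0.325 when adjusted over the 13 ratios and shares compared in this way.

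**Figure D3:**
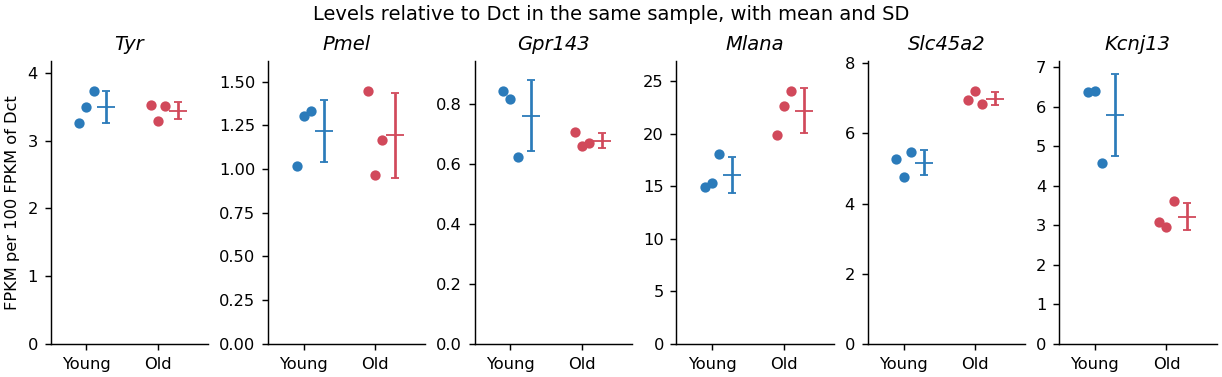
FPKM per 100 FPKM of Dct in the same sample for Tyr, Pmel, Gpr143, Mlana, Slc45a2 and Kcnj13, each on its own axis from 0, with points for samples and bars for mean and SD (n = 3). Mlana and Slc45a2 were above the young samples in all 3 old samples, Kcnj13 was below them, and Tyr, Pmel and Gpr143 overlapped.

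Mitf (chr6:97807052-98021349, plus strand) is the transcription factor that directs the melanocyte lineage, and its transcripts start at several promoters. The gene as a whole was at 46.4, 46.5 and 51.7 FPKM in young mice and at 62.7, 65.5 and 47.2 FPKM in old mice. Old replicates 1 and 2 were above all young samples and old replicate 3 was among them. For the whole gene the log2 change was 0.26 (SE 0.13, 95% interval -0.03 to 0.56, limma adjusted p = 0.228), and it was 0.18 without old replicate 2 and 0.41 without old replicate 3 (limma adjusted p = 0.0735).

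The table lists 6 transcripts of Mitf, of which 4 start upstream and 2 start at the last promoter, close to the exons that all forms share. The last promoter is the one used in melanocytes and gives the M form, here Mitf-201 with 419 codons. The longest form, Mitf-202, starts at the first promoter, has 526 codons and is the A form, which many cell types make. The start of the coding sequence is shown for both, because their coding sequences differ there (start codon in capitals, GENCODE M21).
Mitf-201: ATGctggaaatgctagaatacagtcactac
Mitf-202: ATGcagtccgaatcgggaatcgtggcggat
From there on their coding sequences share the last 1226 nt.

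The sum of the 2 transcripts from the last promoter of Mitf was higher in each old sample than in each young sample, while either transcript alone overlapped between the ages. They summed to 14.4, 10.45 and 15.8 FPKM in young mice and to 23.96, 26.8 and 16.2 FPKM in old mice, while those from upstream promoters summed to 32.0, 36.1 and 35.9 FPKM in young mice and to 38.75, 38.71 and 30.96 FPKM in old mice. The upstream group overlapped between the ages. For the last promoter, old replicate 3 (16.2 FPKM) was close to young replicate 3 (15.8 FPKM). The ages did not overlap for 24.6% of all transcripts and 33.7% of all genes. No such background was computed for sums or shares by promoter. As a share of all Mitf FPKM, the last promoter gave 31.0, 22.5 and 30.5% in young mice and 38.2, 40.9 and 34.4% in old mice (p = 0.1 by exact permutation, and 0.325 adjusted over the 13 ratios and shares). The difference of 9.83 percentage points stayed between 7.06 and 11.55 when any 1 sample was left out. Mitf-201 alone was at 8.43, 8.12 and 13.3 FPKM in young mice and at 18.9, 19.91 and 11.5 FPKM in old mice, and had a log2 change of 0.74 (SE 0.27) that did not pass over all transcripts (limma adjusted p = 0.239). Of the single Mitf transcripts, the ages did not overlap for the scarce upstream Mitf-204, at 0.403, 0.984 and 0.562 FPKM in young mice and at 0.246, 0.125 and 0.178 FPKM in old mice (log2 change -1.35, SE 0.55, limma adjusted p = 0.285). Mitf-204 rested on an estimated 9.906 to 25.15 fragments per young sample and 3.615 to 5.704 per old sample. FPKM of single transcripts of a gene is an estimate that divides shared fragments between them, and this estimation error is not in the SD. Mitf-202 ends at chr6:98021349, whereas the other Mitf transcripts end no later than chr6:98018707. Fragments of the longer 3′ end are thus counted for an upstream promoter, whichever promoter was used. The part of the 3′ end in this share was not tested.

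**Figure D4:**
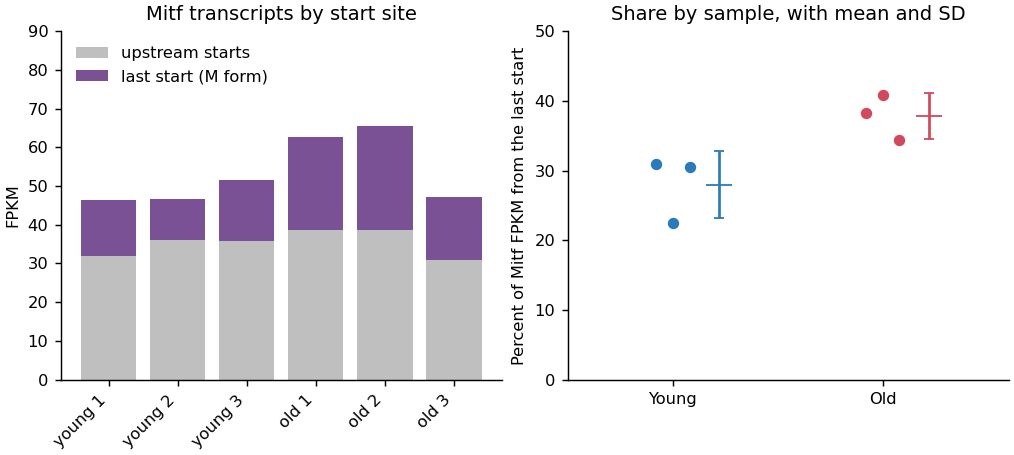
FPKM of Mitf in each sample split into transcripts from upstream promoters and from the last promoter (left, bars from 0), and the share of the last promoter by sample with mean and SD (right, n = 3 per age). The share was 22.5 to 31.0% in the young samples and 34.4 to 40.9% in the old samples.

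The region before the last Mitf start holds the cyclic AMP response element TGACGTCA, a palindrome through which melanocyte-stimulating signals are known to act on this promoter. It is shown because the summed level from this start did not overlap between the ages. This was also so for 33.7% of all genes and 24.6% of all transcripts. A match does not show that a factor bound there, and its part in that level was not tested. The element lay at -153 to -146 from the RefSeq start, and 1.55% of the 32851 promoters held it within 250 bases. The other 2 Mitf starts in RefSeq, and those of Tyr, Dct, Tyrp1, Kit and Ednrb, did not. The stretch is chr6:97991623-97991722 on the plus strand, with the element in capitals.
Mitf last promoter: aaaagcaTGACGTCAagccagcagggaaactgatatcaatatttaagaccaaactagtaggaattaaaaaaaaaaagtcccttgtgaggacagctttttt

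Mitf-207 starts at the first promoter as Mitf-202 does, but lacks 18 nt of coding sequence (chr6:98006123-98006140). Both transcripts have 10 exons, so that these bases are part of a longer exon in Mitf-202. The bases are shown in capitals with 12 coding bases on either side, because they separate the forms of this gene a second time.
Mitf-202: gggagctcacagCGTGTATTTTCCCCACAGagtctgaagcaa
Mitf-207: gggagctcacagagtctgaagcaa
Mitf-207 was at 2.903 ± 1.25 FPKM (SD, n = 3) at 1 month and 2.42 ± 1.83 FPKM at 12 months, against 30.5 ± 0.978 and 33.2 ± 6.29 FPKM for Mitf-202. Of this pair, the form without the 18 nt was thus the minor one at both ages. Mitf-208, which starts at the last promoter, also lacks these bases.

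Kit and Ednrb are the receptors that melanocyte precursors need to survive and migrate. Kit (chr5:75574916-75656722, plus strand), the receptor of stem cell factor, was the only gene of the 10 with a change below 0. It was at 15.3, 15.0 and 12.7 FPKM in young mice and at 13.3, 11.9 and 11.6 FPKM in old mice, where old replicate 1 lay above young replicate 3. The log2 change was -0.22 (SE 0.11, 95% interval -0.47 to 0.03, limma adjusted p = 0.236), and it stayed between -0.30 and -0.17 when any 1 sample was left out.

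Kit has coding forms of 979 codons (Kit-201) and 975 codons (Kit-204), which differ by 12 nt at the end of an exon (chr5:75639147-75639158). The bases are shown in capitals, because this alternative splice donor is the whole difference between the proteins.
Kit-201: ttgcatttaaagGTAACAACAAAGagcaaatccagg
Kit-204: ttgcatttaaagagcaaatccagg
The shorter form made up 55.7, 64.5 and 66.2% of Kit FPKM in young mice and 51.8, 64.3 and 61.0% in old mice, with overlapping groups. Kit-204 was at 8.53, 9.65 and 8.43 FPKM in young mice and at 6.89, 7.68 and 7.06 FPKM in old mice, all old samples below all young ones (log2 change -0.29, SE 0.11, limma adjusted p = 0.2635 over all transcripts). The ages did not overlap, in either direction, for 24.6% of all transcripts tested. Kit is also made by mast cells, whose proteases were below 1 FPKM here. Of 8 mast cell genes, 7 were below the filter. Tpsb2 and Tpsab1 were listed at 0 in all samples, Cpa3, Mcpt4, Cma1 and Fcer1a reached 0.207, 0.229, 0.512 and 0.450 FPKM in young replicate 3, their highest, and Hdc, which other cells also make, was at 0.870 to 3.85 FPKM. The summed level of the 8 genes was 2.50 to 5.24 FPKM in the young samples and 0.870 to 2.18 FPKM in the old ones. Most of this sum was Hdc, at 3.21 ± 0.675 and 1.59 ± 0.643 FPKM (SD, n = 3), so that it hardly describes the mast cell proteases. The part of mast cells in the values of Kit was not tested.

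Ednrb (chr14:103814625-103844402, minus strand), the receptor of endothelin 3, was at 36.6, 25.7 and 31.3 FPKM in young mice and at 39.1, 38.9 and 35.1 FPKM in old mice. Old replicate 3 lay below young replicate 1, and the rest of the old values were above the young ones. The log2 change was 0.29 (SE 0.13, 95% interval -0.02 to 0.59, limma adjusted p = 0.201), and 0.15 without young replicate 2. Its 2 transcripts in the table, Ednrb-201 and Ednrb-202, have the same 442 codons and differ at the 5′ end. Ednrb-201 made up between 6.11 and 27.99% of the gene in young mice and between 19.7 and 45.1% in old mice, a spread within each age as wide as the difference between them.

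Over all transcripts of the 10 genes, 21 were in the table and 19 were tested. With limma and p adjusted over the 38764 transcripts tested, 0 passed, compared with 0.748% of all transcripts, and 5 were below 0.05 before adjustment (17.0% of all transcripts). For 5 of the 19 the groups did not overlap, against 24.6% of all transcripts.

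The other genes of the pathway were described by 3 lists. Among 20 melanocyte regulators, which include transcription factors, ligands and receptors, 17 were tested and 0 passed with limma (0 at an unadjusted p below 0.05), with a median log2 change of 0.04. Sox10, which activates Mitf and Dct, was at 32.2 ± 4.33 FPKM (SD, n = 3) at 1 month and 31.7 ± 6.09 FPKM at 12 months, and Pax3 at 1.45 ± 0.407 and 1.67 ± 0.128 FPKM. Of the ligands, Kitl for the Kit receptor was at 8.26 ± 1.13 and 8.48 ± 0.479 FPKM, and Edn3 for Ednrb at 0.462 ± 0.131 and 0.496 ± 0.185 FPKM. Trpm1, a channel that is a target of Mitf, was at 16.6 ± 1.31 and 16.0 ± 4.86 FPKM. Snai2 had the lowest change of the list (-0.9963, limma adjusted p = 0.219). Ece1 had the highest (1.61, SE 1.62), with 18.8 FPKM in young replicate 1 and 958.2 to 2662 FPKM in the other samples. Asip was not analysed here.

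Among 28 genes of melanosome biogenesis and transport, 4 rose in old mice (14.3%, where 5.65% of all genes did) and 0 fell, with a median log2 change of 0.14. Bloc1s1, a subunit of a complex that sorts cargo to melanosomes and lysosomes, rose from 159.3 ± 13.15 to 207.9 ± 13.6 FPKM (log2 change 0.39, SE 0.08, limma adjusted p = 0.0346). Hps1, which is mutated in Hermansky-Pudlak syndrome, rose from 3.67 ± 0.884 to 6.31 ± 0.486 FPKM (0.79, SE 0.19, adjusted p = 0.0453). Gpnmb, a relative of Pmel, rose from 91.2 ± 22.4 to 140.5 ± 0.913 FPKM (0.65, SE 0.15, adjusted p = 0.0426). Cd63, a tetraspanin of melanosomes and late endosomes, rose from 233.9 ± 26.3 to 298.0 ± 12.4 FPKM (0.35, SE 0.09, adjusted p = 0.0495). These 4 genes are not particular to pigment cells, and lysosomes of macrophages are rich in Gpnmb and Cd63. Oca2 and Slc24a5, which are melanosome transporters, had means of 0.192 and 1.59 FPKM at 1 month and of 0.316 and 2.24 FPKM at 12 months, and did not pass (limma adjusted p = 0.476 and 0.276).

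Among 7 further genes of intermediate cells, 1 rose and 1 fell, where 5.65% of all genes rose and 3.81% fell. Cd44, a receptor for hyaluronan, was at 16.0, 12.1 and 17.6 FPKM in young mice and rose to 26.5, 23.8 and 26.7 FPKM in old mice (log2 change 0.77, SE 0.14, limma adjusted p = 0.0256). Kcnj13, a potassium channel, was at 51.0, 38.3 and 43.6 FPKM in young mice and fell to 27.8, 23.9 and 31.8 FPKM in old mice (log2 change -0.67, SE 0.14, limma adjusted p = 0.0306). Relative to Dct in the same sample Kcnj13 lay below the young samples in all old ones, at 3.09, 2.95 and 3.61 against 6.37, 6.38 and 4.58 per 100 FPKM. Of all genes compared in this way, 14.9% did so. The ratio uses the same Kcnj13 values and adds no separate evidence (exact permutation p = 0.1, and 0.325 adjusted over the 13 ratios and shares). Kcnj10, the channel by which intermediate cells set the endocochlear potential, was at 25.2 ± 3.45 FPKM at 1 month and 32.7 ± 5.93 FPKM at 12 months and did not pass (limma adjusted p = 0.164). The 6 calls in these 3 lists changed with the samples used. Without young replicate 3 there were 4 (Cd44, Cd63, Gpnmb and Hps1), and without any other 1 sample there were 0.

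**Figure D5:**
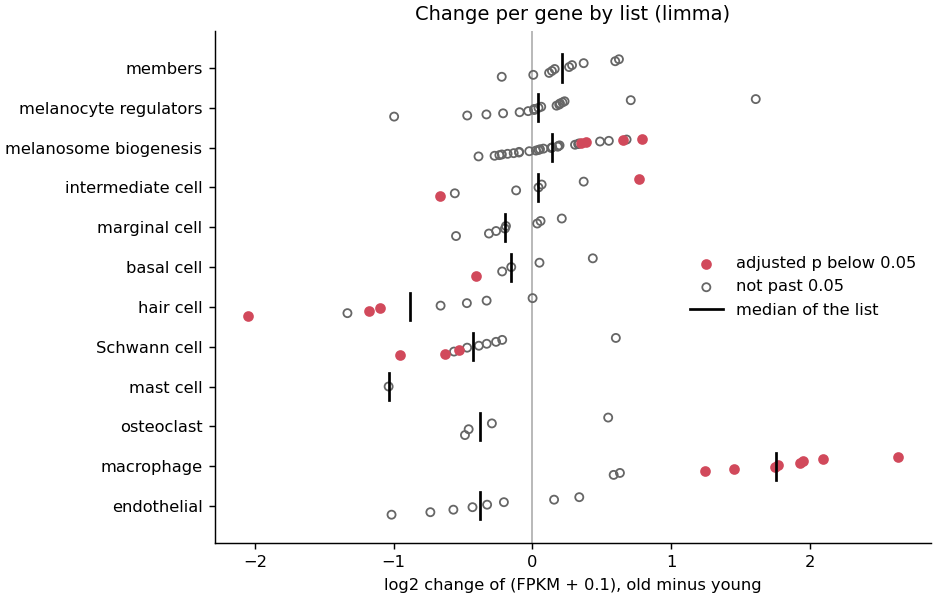
Log2 change of (FPKM + 0.1), old minus young, of each tested gene by list, with filled points for an adjusted p below 0.05 (limma) and a line at the median. The 10 pigment genes had a median of 0.21 with 0 filled points, while the macrophage list had a median of 1.76 and 8 of 10 filled points.

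The other cell types in the tissue were described by marker lists, to be read beside the 5.65% of all genes that rose and the 3.81% that fell. Of 10 macrophage genes, 8 rose in old mice, and the summed level of the list was 129.5 to 199.7 FPKM in the young samples and 698.1 to 772.7 FPKM in the old samples. None of these genes was at 0 in any sample, and Csf1r rose from 8.73 ± 2.22 to 20.4 ± 1.71 FPKM (limma adjusted p = 0.0145). Macrophages also express Gpnmb, Cd63, Cd44 and upstream forms of Mitf, and the part of the macrophage genes in those values was not tested. Among Schwann cell genes, whose cells share Sox10 and Ednrb with melanocytes, the myelin genes Prx and Pmp22 fell, from 48.9 ± 9.85 to 31.1 ± 1.45 FPKM and from 232.5 ± 41.65 to 159.5 ± 8.89 FPKM (limma adjusted p = 0.0408 and 0.0469). The summed level of the 10 genes of the list was 3941 to 4751 FPKM at 1 month and 3408 to 3797 FPKM at 12 months. Most of this sum was S100b, at 3424 ± 233.4 and 2946 ± 196.6 FPKM. Of 8 osteoclast genes, which share Mitf, 4 were tested and 0 passed, with Ctsk at 21.15 ± 3.77 and 17.1 ± 0.172 FPKM, Acp5 at 2.86 ± 1.22 and 1.90 ± 0.274 FPKM, and a summed level of 19.6 to 29.75 FPKM at 1 month and 19.5 to 19.8 FPKM at 12 months. Of 8 endothelial genes 0 passed, with Pecam1 at 15.6 ± 2.13 and 12.2 ± 4.87 FPKM and sums of 136.8 to 187.5 and 112.8 to 151.2 FPKM. At an unadjusted p below 0.05 there were 0 osteoclast and 3 endothelial genes.

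The neighbours of the intermediate cells in the stria were described in the same way, where 5.65% of all genes rose and 3.81% fell. Of 8 marginal cell genes 0 passed with limma (0 at an unadjusted p below 0.05), with a median log2 change of -0.19 and a summed level of 1394 to 1846 FPKM in the young samples, with old replicate 1 inside this range and old replicates 2 and 3 below it at 1323 and 1292 FPKM. Kcne1 was at 140.9 ± 37.9 FPKM at 1 month and 120.3 ± 5.92 FPKM at 12 months, and Kcnq1 at 45.5 ± 10.4 and 51.9 ± 4.59 FPKM. Of 5 basal cell genes 1 fell, the junction protein gene Tjp1, from 49.1 ± 2.34 to 37.0 ± 2.49 FPKM (limma adjusted p = 0.0258), which many epithelia express. Cldn11 was at 246.7 ± 38.8 FPKM at 1 month and 331.3 ± 20.2 FPKM at 12 months and did not pass (limma adjusted p = 0.0625). Its old samples all lay above its young ones, as for 17.6% of all genes. The summed level of the 5 basal cell genes was 420.2 to 476.4 FPKM at 1 month and 521.9 to 532.5 FPKM at 12 months. Cldn11 was the largest part of this sum. Of 8 hair cell genes 3 fell (Slc26a5, Ocm and Gfi1). The summed level of the 8 genes was 119.8 to 209.7 FPKM at 1 month and 69.4 to 92.8 FPKM at 12 months. Most of this sum was Ocm, at 135.2 ± 41.05 and 58.4 ± 11.4 FPKM. The 15 calls in the lists of other cells came to between 1 and 7 when young replicate 1, young replicate 2 or any old sample was left out, and were 14 without young replicate 3.

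The genes most like the enzymes in their pattern over the 6 samples were searched among 14976 genes with a mean of at least 1 FPKM, by Pearson r with the mean z-score of Tyr, Tyrp1 and Dct. The 5 highest were Cebpzos, Gemin7, Trmt44, Tent5c and LNC_000741, with r from 0.974 to 0.995, and 82 genes had r of at least 0.9. Tyrp1, which is limited by counting, is 1 of the 3 genes behind this profile, and the profile was highest in old replicate 1, whereas Tyr and Dct were highest in young replicate 3. The list therefore follows the mean score and neither Tyr nor Dct alone, and with 6 samples it is a description of these libraries.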

How the data were processed

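Cochlear RNA of 3 young and 3 old samples was sequenced by the authors from directional libraries as paired-end reads. Per the labels, CASAVA (1.8), TopHat2 (2.0.9), Cufflinks (2.1.1) and Cuffdiff (2.1.1) were used with GRCm38, and the authors deposited FPKM per transcript and sample. How libraries were scaled and the annotation release are not given in the sources used here. Each sample is a pool of 3 mice, so p-values measure the spread between pools.

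Of 55679 Ensembl transcripts, 55275 were matched to GENCODE M21 (GRCm38), and the 404 others were left out of the sums per gene. FPKM was summed per gene and compared with limma 3.58.1 in R 4.3.3 (lmFit, eBayes with trend, two-sided) on log2(FPKM + 0.1), for means of at least 0.1 FPKM, with Benjamini-Hochberg adjustment over all genes, or all transcripts. Such a change understates that of low genes. Cuffdiff, the test of the study, needs the reads. Single values were compared by exact permutation in scipy 1.17.1, whose smallest two-sided p is 0.1. The code was tested on simulated data.

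Depth was estimated from single-transcript genes of 1000 to 4000 nt, where 94.1 to 95.7% of low values lay within 0.1 of a whole fragment number (20% by chance). It covers counting error only. Replicate numbers did not pair the samples (correlations of deviations -0.04 to 0.02).

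The members, the lists and the motifs were chosen with earlier results of these data known. Named genes are the 10 members, list genes past the threshold, the best known genes of each list, and the 5 genes most like Tyr, Tyrp1 and Dct. The result of 1 list gene is not reported here. Snai2, Ece1, Cma1 and Fcer1a were named after their values were seen, and so was every ratio to Dct and each share of transcripts.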

Additional observations from a re-analysis of the deposited data

How the results depend on the processing

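Across the 16 alternatives, which were other pseudocounts (0.01 and 1), filters, scalings, variance models, sample weights, a replicate block, the most abundant transcript and each sample left out, 150 of 159 changes of single members kept their direction and their side of the threshold. Tyrp1 gave no value with a mean of at least 1 FPKM. Mitf, Kit, Ednrb, Mlana and Slc45a2 kept their direction in all of them. With each sample left out, the log2 change ranged from -0.036 to 0.34 for Tyr, from -0.097 to 0.93 for Tyrp1, from -0.019 to 0.31 for Dct, from -0.055 to 0.34 for Pmel and from -0.11 to 0.11 for Gpr143, and with sample weights it was -0.055 for Gpr143. Members past the threshold numbered 0 in every setting but 1, with a range of 0 to 1 over samples left out (Mlana, without young replicate 3), and their transcripts 0 throughout. Of all genes, 1840 passed, against 1152 without a filter, 410 without a variance trend and 5 to 1445 with 1 sample left out. With the replicate block 730 genes passed, with 0 members. The 6 calls in the pathway lists became 2 without a filter, 3 with quantile normalization, 0 without a variance trend, 2 with the replicate block (Cd44 and Kcnj13) and 0 to 4 with 1 sample left out. The 15 calls in the lists of other cells became 7 without a variance trend and 1 to 14 with 1 sample left out. The causes were not tested, beyond the smaller number of samples or the larger number of genes. With 12520000 to 15580000 fragments, Tyrp1 is limited by counting.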
